A study of Homo sapiens with 3 samples.

Results

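The kallikrein-related peptidases are secreted serine proteases whose genes lie side by side on chromosome 19. The genes described here are 9 of them, KLK5, KLK6, KLK7, KLK8, KLK10, KLK11, KLK13, KLK14 and KLK15, chosen by symbol from a list of 36601 genes. They were selected on their measured UMIs in these same libraries, so their levels and ratios are a description and carry no test. The 6 other family genes, KLK1, KLK2, KLK3, KLK4, KLK9 and KLK12, are given beside them.

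The cells were OVCAR3, an established cell line from a high-grade serous ovarian cancer, grown for 48 hours with the solvent DMSO, with 50 µM of the RAC1 inhibitor NSC23766 in DMSO (RAC1i), or with 50 µM NSC23766 and 5 µM of the EZH2 inhibitor GSK126 (Combo). NSC23766 blocks activation of the small GTPase RAC1, and GSK126 blocks the methyltransferase that places the repressive mark H3K27me3. All 3 groups were the same line, and each was 1 library of single cells from 1 culture, with no replicates. The library of GSK126 alone was not analysed here, so a difference between Combo and RAC1i is a difference of 2 libraries that were made with and without GSK126.

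The counted unit was the unique molecular identifier (UMI), which marks 1 captured mRNA molecule at its 3′ end. Levels are given as CPM, the UMIs of a gene scaled to a library total of 1000000 UMIs, over 7531 DMSO, 10215 RAC1i and 8239 Combo cells, which held from 199063947 to 234969742 UMIs per library. The intervals in brackets are exact 95% intervals for counting error only and say nothing of how another culture would vary. DMSO cells had a median mitochondrial share of 5.60% and treated cells 1.66% and 1.58%, and this difference goes with treatment throughout. Of 11 ovarian epithelial markers, 11, 10 and 9 reached 10 CPM in DMSO, RAC1i and Combo, with a summed level of 3881, 1899 and 2055 CPM. None of the 10 markers of immune, endothelial and stromal cells reached 10 CPM, and their summed level lay between 8.31 and 8.80 CPM in all 3 libraries, with PTPRC and CD3E, which define leukocytes, at or near 0. Fewer than 50 kept cells per library, 35 to 43, carried a barcode that also occurred in another library.

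Kallikreins are made as inactive proenzymes and are switched on by cutting off a short propeptide, often by another kallikrein. In skin this gives a cascade in which KLK5 activates KLK7 and KLK14, held in check by the inhibitor LEKTI, the product of SPINK5, and the active enzymes cut the desmosomal proteins that hold cells together. Several kallikreins are abundant in ovarian carcinomas, and KLK2, KLK3 and KLK4 are best known from the prostate. KLK15 is known for activating the proenzyme of KLK3, prostate-specific antigen.

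Among the members with at least 10 UMIs in every library, KLK15 differed most from DMSO, and in the direction opposite to KLK5, KLK6, KLK7, KLK8, KLK10 and KLK11. KLK15 counted 124 UMIs in DMSO, 24205 in RAC1i and 18370 in Combo, or 0.623 (0.518 to 0.743), 103 (102 to 104) and 86.3 (85.1 to 87.6) CPM. Its level was 165-fold higher in RAC1i than in DMSO (139 to 199) and 139-fold higher in Combo than in DMSO (116 to 167). Both treated libraries were therefore far above DMSO, and Combo was at 0.838 times RAC1i over all cells (0.822 to 0.854). That order turned in cells with 5% to 20% mitochondrial UMIs, where KLK15 in Combo was at 1.17 times RAC1i (1.02 to 1.34). Among genes that reached 10 CPM in 1 library or both, KLK15 had the place 10 of 8778 from the top in RAC1i over DMSO and 7 of 8745 in Combo over DMSO. These 2 comparisons share the DMSO library, so they are not independent of each other.

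The KLK15 gene (ENSG00000174562) lies on the minus strand of chr19:50825289-50837213 (GRCh38, GENCODE 44). Promoter windows of 300 bases, from 250 bases before a start to 50 after it, are given by RefSeq (GRCh38.p14) for 8 of the 9 members, with 16 windows in all since several genes have more than 1 start. KLK8 was not in that table. Both KLK15 windows are shown because KLK15 was the one member at 10 CPM or more that was higher with treatment, and KLK5 and KLK6 because they were at that level and lower. The windows of KLK13, higher at under 0.5 CPM, and of the other members are not shown. Each is written 5′ to 3′ on the gene's own, minus strand. Capitals mark the letters TATAAA, the core of a TATA box, and GGGCGG, a GC box, or their reverse complements.
KLK15, upstream start, chr19:50833525-50833824: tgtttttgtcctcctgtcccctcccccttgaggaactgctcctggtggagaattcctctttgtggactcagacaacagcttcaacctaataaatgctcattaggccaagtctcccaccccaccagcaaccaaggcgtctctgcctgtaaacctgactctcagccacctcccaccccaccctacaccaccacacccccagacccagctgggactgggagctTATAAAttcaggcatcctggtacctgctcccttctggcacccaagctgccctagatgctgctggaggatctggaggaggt
KLK15, downstream start, chr19:50831474-50831773: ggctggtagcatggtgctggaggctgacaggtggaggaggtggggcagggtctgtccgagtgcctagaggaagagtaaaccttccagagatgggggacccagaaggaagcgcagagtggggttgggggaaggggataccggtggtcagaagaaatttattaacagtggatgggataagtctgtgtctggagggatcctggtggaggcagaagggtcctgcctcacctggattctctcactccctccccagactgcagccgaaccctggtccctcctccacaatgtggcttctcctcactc
KLK5, chr19:50952989-50953288: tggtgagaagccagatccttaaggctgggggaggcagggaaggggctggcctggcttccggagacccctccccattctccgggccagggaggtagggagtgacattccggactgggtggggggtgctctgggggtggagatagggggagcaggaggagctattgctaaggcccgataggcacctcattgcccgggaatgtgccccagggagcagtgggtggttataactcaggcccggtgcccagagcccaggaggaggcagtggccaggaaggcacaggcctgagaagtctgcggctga
KLK6, chr19:50969542-50969841: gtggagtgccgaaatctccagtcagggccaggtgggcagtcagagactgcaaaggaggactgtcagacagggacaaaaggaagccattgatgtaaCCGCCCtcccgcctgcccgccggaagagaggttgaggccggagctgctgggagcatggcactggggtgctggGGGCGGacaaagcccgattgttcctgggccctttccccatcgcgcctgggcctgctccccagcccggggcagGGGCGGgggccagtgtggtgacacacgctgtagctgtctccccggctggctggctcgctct
The upstream KLK15 window was the only 1 of the 16 member windows with TATAAA, which began 30 bases before the start. It was not the only such window of the family. Those of KLK3 and KLK2 held the reverse complement, beginning 28 and 34 bases before the start. KLK3 counted 0, 0 and 1 UMIs in DMSO, RAC1i and Combo, and KLK2 1, 1 and 2. On either strand, TATAAA was found in 11.5% of all 35116 promoter windows in the table. Only these exact letters were searched for. Near forms were not counted, such as TATAAC in the KLK5 window shown and TATAAG in windows of KLK7. KLK15 is thus not set apart from KLK5 or KLK7 by having TATA-like letters. KLK6 had 3 GC boxes and KLK15 and KLK5 had none in these windows. GGGCGG was in 9 of the 16 member windows and in 44.95% of all windows. The AP-1 letters TGANTCA and the steroid receptor half-site AGAACA were in 0 of the 16, against 7.71% and 14.8% of all windows. A loose form of the kappaB motif, GGG and CC across 5 free bases, was in 14 of the 16 and in 58.7% of all, and it can overlap a GC box. Its fixed letters are all G and C. The member windows held from 54.3% to 70.7% G and C, beside a median of 58.67% over all windows. Windows of 1 gene partly overlap, as for KLK7 with its 3 starts, so the 16 are not separate samples. Counts made at the 3′ end do not show which start was used, and the annotated KLK15 gene also extends above both RefSeq starts.

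Of the 9 members, 3 were on in DMSO, where on means at least 10 CPM, and 4 in each treated library. Of all 36601 genes, 8778 reached 10 CPM in DMSO, RAC1i or both, and 8745 in DMSO, Combo or both. The number of all genes at 10 CPM within each single library is not given here. Since the members were selected on their UMIs, nothing is read from how many were on. KLK5, KLK6 and KLK8 were on in every library, and KLK15 was the addition. KLK7 and KLK10 lay between 1 and 10 CPM in all 3, and KLK11, KLK13 and KLK14 lay under 1 CPM in all 3.

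**Figure D1:**
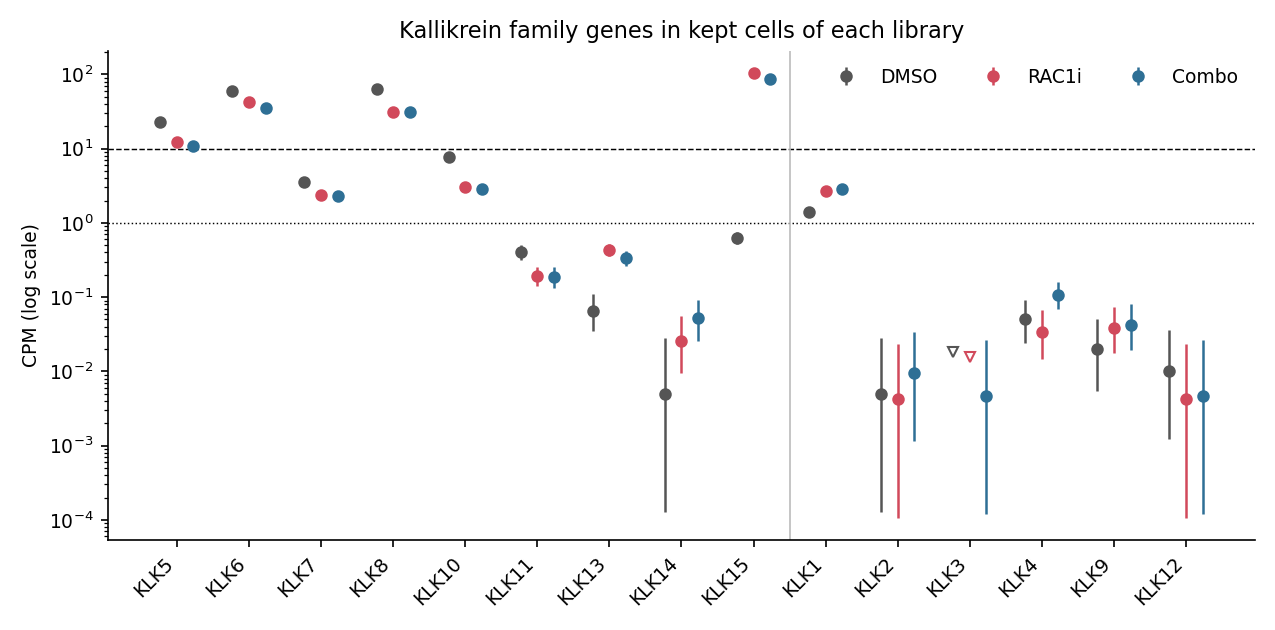
CPM (log scale) of the 9 selected genes (left of the grey line) and the 6 other family genes in DMSO, RAC1i and Combo, 1 library each. Points are levels over kept cells, bars are exact 95% counting intervals, open triangles are the upper bounds of genes with 0 UMIs, and the dashed and dotted lines mark 10 and 1 CPM. KLK15 is the gene that crosses both lines, from 0.623 CPM in DMSO to 103 and 86.3 CPM.

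KLK5 and KLK7, members of the skin cascade, were lower in both treated libraries. KLK5, the trypsin-like protease that starts the cascade, was at 22.5 CPM in DMSO, 12.1 in RAC1i and 10.8 in Combo. KLK5 was 1.86-fold lower in RAC1i than in DMSO (1.78 to 1.96) and 2.10-fold lower in Combo than in DMSO (1.99 to 2.21). KLK7, the chymotrypsin-like enzyme that KLK5 activates, was at 3.58, 2.40 and 2.29 CPM, which is 1.49-fold (1.33 to 1.66) and 1.56-fold (1.39 to 1.76) lower than DMSO. KLK14, another trypsin-like target of KLK5, counted 1, 6 and 11 UMIs, with a ratio to DMSO of 5.08 in RAC1i (0.617 to 234) and 10.3 in Combo (1.496 to 443). Of these 3 genes of the cascade, KLK5 alone reached 10 CPM, and it did so in each library.

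KLK6, known as neurosin, and KLK8, known as neuropsin, were the kallikreins with the most UMIs in DMSO. KLK8 was at 63.8 CPM in DMSO, 30.9 in RAC1i and 31.4 in Combo. KLK8 was 2.06-fold lower in RAC1i (2.00 to 2.12) and 2.03-fold lower in Combo (1.97 to 2.09) than in DMSO. KLK6 was at 59.2, 42.6 and 35.7 CPM, or 1.39-fold lower in RAC1i (1.35 to 1.43) and 1.66-fold lower in Combo (1.61 to 1.71). KLK6 and KLK8 were both lower with treatment, and over all cells KLK8 was so by a like amount in both treated libraries. KLK6 was lower still in Combo than in RAC1i, by 1.19-fold (1.16 to 1.23), while KLK8 in Combo was 1.02 times RAC1i (0.982 to 1.05). Within ranges of cells, defined below, KLK8 in Combo lay on both sides of RAC1i. From the shallowest to the deepest cells it was at 1.19, 1.13 and 0.973 times RAC1i. From the lowest to the highest mitochondrial share it was at 1.02, 1.12 and 0.795 times (0.677 to 0.933 for the last).

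KLK10, also called NES1, was at 7.60, 3.03 and 2.89 CPM in DMSO, RAC1i and Combo. That made KLK10 2.50-fold lower in RAC1i (2.29 to 2.74) and 2.62-fold lower in Combo (2.39 to 2.89) than in DMSO. In cells of 15000 to 30000 UMIs alone, KLK10 in Combo over DMSO was under 2-fold lower, at a log2 ratio of -0.79. KLK11, or hippostasin, counted 80, 45 and 40 UMIs and was 2.10-fold lower in RAC1i (1.44 to 3.09) and 2.14-fold lower in Combo (1.45 to 3.21). KLK13 was the second member that was higher with treatment, with 13 UMIs in DMSO, 102 in RAC1i and 71 in Combo. Its ratio to DMSO was 6.65 in RAC1i (3.72 to 12.9) and 5.11 in Combo (2.81 to 10.1), at levels that stayed under 0.5 CPM. The size of these ratios is uncertain, since in cells thinned to 5000 UMIs, where 1 DMSO cell held KLK13, the log2 ratios were 4.13 and 4.19 in place of 2.73 and 2.35.

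With 10 CPM in the higher library required, 4 members remained, KLK5, KLK6, KLK8 and KLK15, and the other 5 were below it. In RAC1i over DMSO, 1 of the 4, KLK15, was over 2-fold higher, where 13.1% of all 8778 genes were, and 1, KLK8, was over 2-fold lower, where 24.6% were. In Combo over DMSO, 1 was over 2-fold higher, against 11.8% of 8745 genes, and 2, KLK5 and KLK8, were over 2-fold lower, against 22.8%. In Combo over RAC1i, 0 of the 4 passed 2-fold in either direction, where 0.0269% of 7443 genes were over 2-fold higher and 0.0134% over 2-fold lower. Since the members were selected on these ratios, nothing is read from their counts. KLK5 in RAC1i and KLK8 in both libraries lay close to the 2-fold line, at log2 ratios of -0.90, -1.04 and -1.02. The median log2 ratio of the 4 was -0.69 in RAC1i over DMSO and -0.88 in Combo over DMSO, and over all 9 members it was -0.57 and -0.73. The median of all genes at 10 CPM was itself -0.20 and -0.18, with 57.6% and 57.2% of genes below 0. KLK6 in RAC1i over DMSO, at -0.48, had 40.6% of all genes below it.

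With KLK15 higher and KLK5, KLK6 and KLK8 lower, the make-up of the family's UMIs changed. All 15 family genes together held 159, 197 and 173 CPM in DMSO, RAC1i and Combo. KLK15 gave 0.391% of these UMIs in DMSO, 52.2% in RAC1i and 49.9% in Combo. KLK8 gave 40.05% in DMSO, 15.7% in RAC1i and 18.2% in Combo, and KLK6 gave 37.2%, 21.6% and 20.6%.

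The 6 other family genes were near the floor, apart from KLK1. KLK1, the tissue kallikrein that releases kallidin, was at 1.41 CPM in DMSO, 2.67 in RAC1i and 2.88 in Combo, 1.89-fold (1.64 to 2.18) and 2.04-fold (1.77 to 2.35) higher than DMSO. KLK2, KLK3, KLK9 and KLK12 counted at most 9 UMIs in any library, and KLK3 0, 0 and 1. KLK4 counted 10, 8 and 23 UMIs. KLK15 was thus high in libraries in which KLK3, whose proenzyme it can activate, was almost undetected.

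The family spans 265 kb of chromosome 19, with 13 genes on the minus strand and 2, KLK2 and KLK3, on the plus strand. Distances are between gene starts in GENCODE 44, where KLK15 starts at position 50837213, upstream of both RefSeq starts used for its promoter windows. KLK1, whose start is 13.4 kb from that of KLK15, is the next family gene on the minus strand. Further along the same strand lie C19orf48, a host gene of small nucleolar RNAs, and AC010325.1, annotated as SMIM47 at chr19:50776141-50793142, with starts 32.3 kb and 44.1 kb from that of KLK15. AC010325.1 counted 13 UMIs in DMSO, 1912 in RAC1i and 1835 in Combo, or 0.0653, 8.14 and 8.62 CPM. Its ratio to DMSO was 125 in RAC1i (72.7 to 234) and 132 in Combo (77.0 to 248), which resembles that of KLK15 at a lower level. C19orf48, which lies between them, was at 49.1, 68.6 and 77.4 CPM, or 1.40 and 1.58 times DMSO. KLK15 and AC010325.1 thus had far higher ratios than C19orf48 and KLK1, which lie between them.

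At the other end, KLK5, KLK6, KLK7, KLK8, KLK10 and KLK11 lie next to each other, with starts from 115.9 to 190.8 kb from that of KLK15, with KLK9 among them at 4, 9 and 9 UMIs. The on genes here were KLK5 at chr19:50943303-50953093, KLK6 at chr19:50958631-50969673 and KLK8 at chr19:50996007-51002711, all on the minus strand. The run of 6 members was lower in both treated libraries. Beyond them lie KLK12 at 2, 1 and 1 UMIs, KLK13 and KLK14, then CTU1, a tRNA modification enzyme, at 26.0, 29.4 and 35.3 CPM. On the other strand, the long noncoding RNA AC011523.1 overlaps KLK15 and counted 1, 1 and 0 UMIs. AC011483.1, which lies opposite KLK6, KLK7 and KLK8, counted 23, 23 and 25. KLK8 and KLK9 share 204 bases of their spans on the same strand, where a read may fit either gene.

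**Figure D2:**
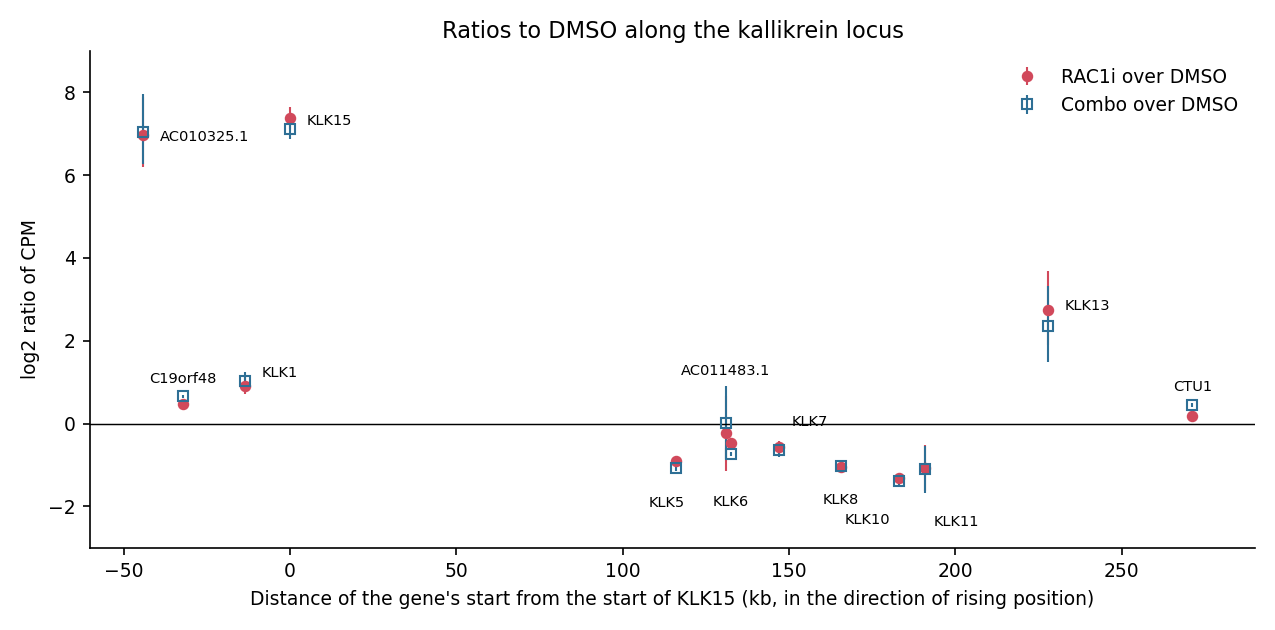
log2 ratios of CPM to DMSO for genes of the locus with at least 10 UMIs in every library, against the distance of each gene's start from that of KLK15 (kb). Circles are RAC1i over DMSO, squares are Combo over DMSO, and bars are 95% counting intervals. KLK15 and AC010325.1 stand near 7, C19orf48 and KLK1 between 0 and about 1, and the run from KLK5 to KLK11 below 0 apart from the antisense AC011483.1, whose interval includes 0.

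UMIs of KLK15 were found in many treated cells. Among all kept cells, 1.61% of DMSO, 68.6% of RAC1i and 66.3% of Combo cells held at least 1 KLK15 UMI, at median depths of 26750, 20989 and 24953 UMIs. To compare shares at equal depth, 5000 UMIs were drawn at random from every cell, and 806, 1015 and 885 cells below that depth were set aside. KLK15 was then found in 20 of 6725 DMSO cells, or 0.297% (0.182 to 0.459), in 37.1% of RAC1i cells (36.1 to 38.1) and in 34.0% of Combo cells (32.9 to 35.1). In the thinned RAC1i cells, 25.7% held 1 KLK15 UMI, 8.35% held 2 and 3% held 3 or more. Had each of these cells held the same mean of 0.525 UMIs, counting alone would give 40.8% positive cells. The 10% of RAC1i cells with the most KLK15 held 45.8% of its UMIs, and the variance of the UMIs was 1.27 times the mean. In Combo the mean was 0.465 UMIs, the share at an even level 37.2%, and the variance 1.25 times the mean.

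In DMSO, KLK15 was close to the limit of detection. Only 3 DMSO cells held 2 or more of its UMIs and none held more than 2, where RAC1i and Combo cells held up to 23 and 26. Of the DMSO cells with a KLK15 UMI, 2 carried a barcode that also occurs in another library and 119 did not. No cell type in these cultures lacks KLK15 by definition, so there was no background share to set beside these shares, and the part of free RNA in them was not tested. Barcodes that failed the limits on cells had 3 UMIs of KLK15 in DMSO, or 0.362 CPM, and were at 130 CPM in RAC1i and 88.7 in Combo, where the kept cells had 0.623, 103 and 86.3 CPM. At median depths of 1462 and 1588 UMIs, 21.6% of the failed RAC1i and 25.1% of the failed Combo barcodes held a KLK15 UMI. With 2579 KLK15 UMIs in these RAC1i and 2453 in these Combo barcodes, the failed barcodes with KLK15 held several UMIs each on average, so their CPM rests on a minority of the failed barcodes, and the median depth does not describe those. KLK6 was at 30.2, 32.8 and 30.4 CPM in the failed barcodes of DMSO, RAC1i and Combo, KLK8 at 33.4, 27.1 and 26.7, and KLK5 at 12.8, 12.3 and 9.51. In DMSO these 3 were below the kept cells, which had 59.2, 63.8 and 22.5 CPM, and the libraries lay closer together in the failed barcodes than in the kept cells. KLK1, at 1.41 to 2.88 CPM, was in 0.654%, 1.43% and 1.66% of thinned cells.

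The share of thinned cells with KLK8 was 27.2% in DMSO (26.1 to 28.3), 14.4% in RAC1i (13.7 to 15.1) and 15.4% in Combo (14.6 to 16.3). KLK6 was in 23.5% (22.5 to 24.5), 17.8% (17.0 to 18.6) and 15.4% (14.6 to 16.3), and KLK5 in 9.47%, 5.70% and 5.22%. Without thinning the shares were 67.8%, 42.6% and 46.9% for KLK8, 60.3%, 45.8% and 45.3% for KLK6, and 34.0%, 19.9% and 19.7% for KLK5. The variance of thinned UMIs of KLK6 was 1.19 times the mean in DMSO, 1.22 in RAC1i and 1.11 in Combo, and that of KLK8 was 1.12, 1.07 and 1.08. KLK10 was in 3.32%, 1.5% and 1.56% of thinned cells and KLK7 in 1.502%, 1.196% and 1.16%.

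**Figure D3:**
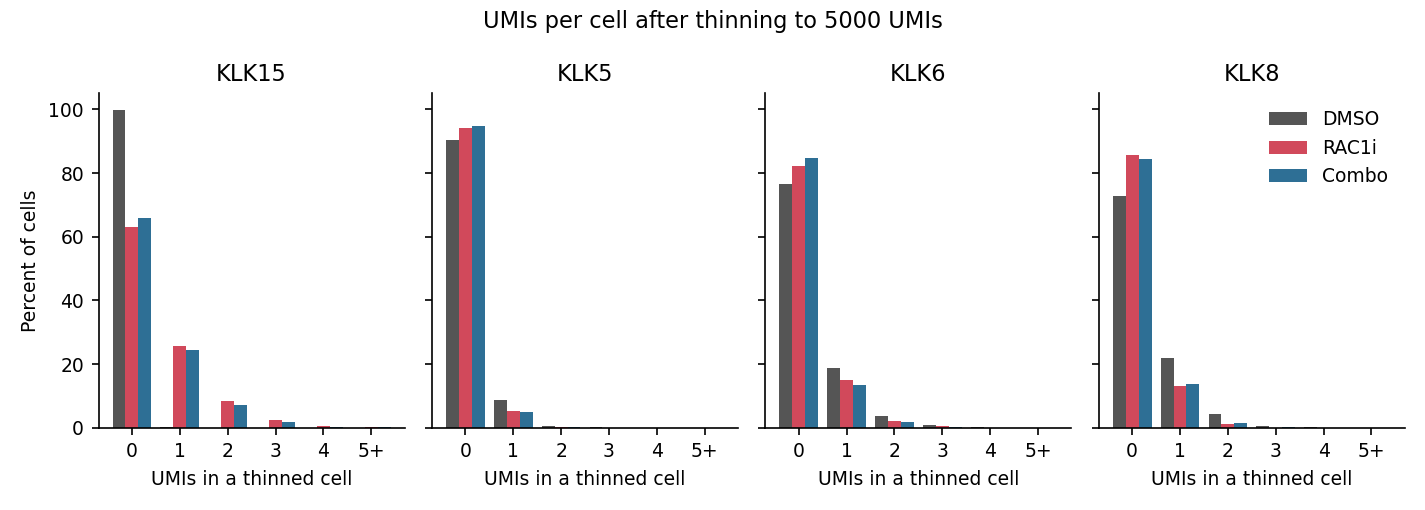
Percent of cells by the number of UMIs of KLK15, KLK5, KLK6 and KLK8, after each cell was thinned to 5000 UMIs, in DMSO (grey), RAC1i (red) and Combo (blue). KLK15 is at 0 UMIs in 99.7% of cells in DMSO, 62.9% in RAC1i and 66.0% in Combo, while KLK5, KLK6 and KLK8 are at 0 UMIs in more treated than DMSO cells.

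How often 2 of the on members were found in the same cell lay near what their separate shares give, between 0.843 and 1.33 times the product of the shares over the pairs in the treated libraries. Doublets were not called, and a doublet can hold genes of both of its cells. At 5000 UMIs, none of KLK5, KLK6, KLK8 and KLK15 was found in 51.7% of cells in DMSO, 41.5% in RAC1i and 44.4% in Combo. KLK6 and KLK8 occurred together in 491 DMSO cells, 1.14 times the product of their shares, in 300 RAC1i cells, 1.27 times, and in 204 Combo cells, 1.17 times. KLK6 and KLK15 occurred together in 528 RAC1i cells, 0.871 times the product, and in 326 Combo cells, 0.847 times. Of the RAC1i cells with KLK6, 32.3% had KLK15, against 38.1% of those without, and in Combo 28.8% against 34.9%. KLK8 and KLK15 gave 0.880 times in RAC1i and 1.01 in Combo, and KLK5 and KLK15 gave 1.11 and 0.843. The pair of KLK6 and KLK15 was thus the one of these 3 below its product in both treated libraries.

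Cells were next ranked by the summed UMIs of 6 lists of genes, each named here by 2 of its genes, and the top 10%, with cells tied at its edge, was set against the other cells of the library. Such a top 10% is a range and not a cell type, and the lists follow subpopulations that the study describes. In RAC1i, KLK15 was 1.46-fold higher (1.35 to 1.59) in the cells highest in the list with MT2A and ID1, metallothionein and differentiation inhibitor genes, and in Combo 1.18-fold (1.06 to 1.31). KLK6 in the same cells was at 0.503 times the others in RAC1i (0.409 to 0.613) and 0.488 times in Combo (0.375 to 0.624). KLK8 there went with KLK15, at 1.23 times (1.05 to 1.44) and 1.43 times (1.22 to 1.68), and the interval of KLK5 included 1 in both. In cells highest in the list with CXCL1 and IER3, inflammatory genes, KLK15 was 1.25-fold higher in RAC1i (1.15 to 1.36) and 1.15-fold in Combo (1.04 to 1.28), while KLK6 was at 0.968 (0.836 to 1.12) and 0.910 (0.751 to 1.09) times the others.

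The order of KLK15 and KLK6 was turned around in the cells highest in the list with GPX3, a secreted glutathione peroxidase, and FTH1. There KLK15 was at 0.697 times the other cells in RAC1i (0.624 to 0.777) and 0.486 times in Combo (0.415 to 0.566), while KLK6 was 1.60-fold (1.41 to 1.81) and 1.89-fold (1.63 to 2.19) higher. KLK8 was above 1 there too, at 1.22 times in RAC1i (1.04 to 1.43) and 1.35 times in Combo (1.14 to 1.58). In DMSO, KLK6 was at 0.873 times the other cells in the range with GPX3 (0.743 to 1.02) and at 1.11 times in that with MT2A (0.971 to 1.26), so neither interval excluded 1. The DMSO ranges hold cells at other scores, since the MT2A range began at 10 UMIs of its list in DMSO, 202 in RAC1i and 275 in Combo, and 749 DMSO cells lay within 1 UMI of that edge. The GPX3 range began at 267, 194 and 177 UMIs. KLK15 in the DMSO ranges rested on few UMIs, and its interval included 1 in all 6. The cells highest in the list with SLPI and CLU, secretory epithelial genes, had KLK15 at 0.613 times in RAC1i (0.545 to 0.687) and 0.769 times in Combo (0.678 to 0.871). KLK6 was 1.94-fold higher there in RAC1i (1.73 to 2.18) and 1.57-fold in Combo (1.34 to 1.83), and in DMSO 1.39-fold (1.22 to 1.59). Those highest in the list with CRYAB and LGALS1 had KLK15 at 0.644 and 0.651 times the other cells and KLK8 at 1.85 and 1.93 times, while KLK8 in DMSO was at 1.14 times (0.996 to 1.30). In the list of MKI67 and TOP2A, proliferation genes, KLK15 was at 0.7001 times in RAC1i (0.629 to 0.778) and 0.666 times in Combo (0.585 to 0.756). KLK6 was also below 1 in the proliferative range, at 0.877 in RAC1i (0.752 to 1.02) and 0.715 in Combo (0.580 to 0.873), and in DMSO at 0.760 (0.644 to 0.891).

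**Figure D4:**
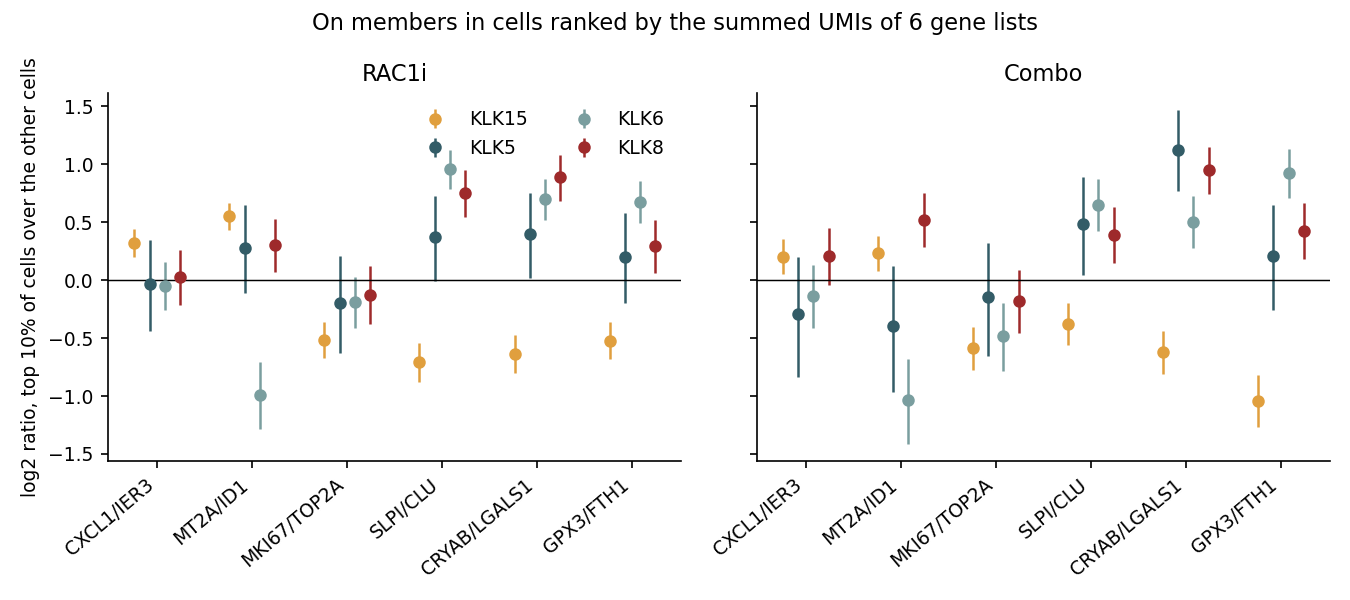
log2 ratio of KLK15, KLK5, KLK6 and KLK8 in the top 10% of thinned cells by each of 6 gene lists, over the other cells of the same library, for RAC1i (left) and Combo (right), with 95% counting intervals. KLK15 and KLK6 lie on opposite sides of 0 for the lists with MT2A, SLPI, CRYAB, GPX3 and CXCL1 in both libraries, and for that with CXCL1 the intervals of KLK6 include 0.

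Depth and mitochondrial share differ between the libraries, so the ratios were taken again within ranges of each. The ranges of mitochondrial share were not matched for depth. Under 2%, DMSO cells were on average shallower than treated cells, and from 5% to 20% they were deeper. KLK15 in RAC1i over DMSO was 200-fold in cells of 5000 to 15000 UMIs, 172-fold in those of 15000 to 30000 and 158-fold above 30000. By mitochondrial share it was 95.1-fold in cells under 2% (60.9 to 158), 108-fold from 2% to 5% (78.5 to 154) and 102-fold from 5% to 20% (78.9 to 134). All 3 were below the ratio over all cells, 165. In Combo over DMSO KLK15 was at 163-fold (79.1 to 407), 165-fold (118 to 238) and 129-fold (103 to 163) by depth. By mitochondrial share it was at 76.7-fold (49.1 to 127), 93.04-fold (67.3 to 132) and 119-fold (92.1 to 157), against 139-fold over all cells. The intervals overlapped within each of these series. Within RAC1i, KLK15 was at 117 CPM in cells under 2% mitochondrial UMIs, 71.0 from 2% to 5% and 54.6 from 5% to 20%.

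The lower levels of the other on members also varied over the ranges, and some of their intervals reached 1. KLK8 in RAC1i over DMSO was at 0.426 in cells under 2% mitochondrial UMIs, 0.562 from 2% to 5% and 0.808 (0.731 to 0.892) from 5% to 20%. KLK6 was at 0.993 (0.912 to 1.08), 0.855 (0.815 to 0.897) and 0.949 (0.863 to 1.04) in these ranges, each closer to 1 than the 0.719 over all cells. KLK5 was at 0.881 (0.763 to 1.02), 0.483 (0.442 to 0.528) and 0.633 (0.520 to 0.763). In the shallowest range of 5000 to 15000 UMIs KLK5 was at 1.05 (0.858 to 1.28), where the deeper ranges had 0.488 and 0.531. Within DMSO itself, KLK5 was at 12.4 CPM in that shallowest range and at 24.4 and 22.9 CPM in the deeper ones. KLK5 in Combo over DMSO was at 0.933 (0.747 to 1.17) in that shallowest range, and at 0.486 and 0.449 in the deeper ones. The interval of KLK6 in RAC1i thus included 1 in cells with under 2% and with 5% to 20% mitochondrial UMIs. That of KLK5 did so in RAC1i in the cells with under 2%, and in both treated libraries in the shallowest cells. In Combo over DMSO KLK6 was at 0.886 (0.814 to 0.966), 0.701 and 0.378 by mitochondrial share. Set against RAC1i, KLK6 in Combo was at 0.893, 0.819 and 0.398 (0.327 to 0.482) in these 3 ranges and KLK15 at 0.806, 0.858 and 1.17, so both ratios moved most in the cells with 5% to 20%. By depth the ratios of Combo to RAC1i lay between 0.810 and 0.885 for KLK6 and between 0.815 and 0.956 for KLK15. The part of the mitochondrial share and of depth in the lower levels was not tested.

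**Figure D5:**
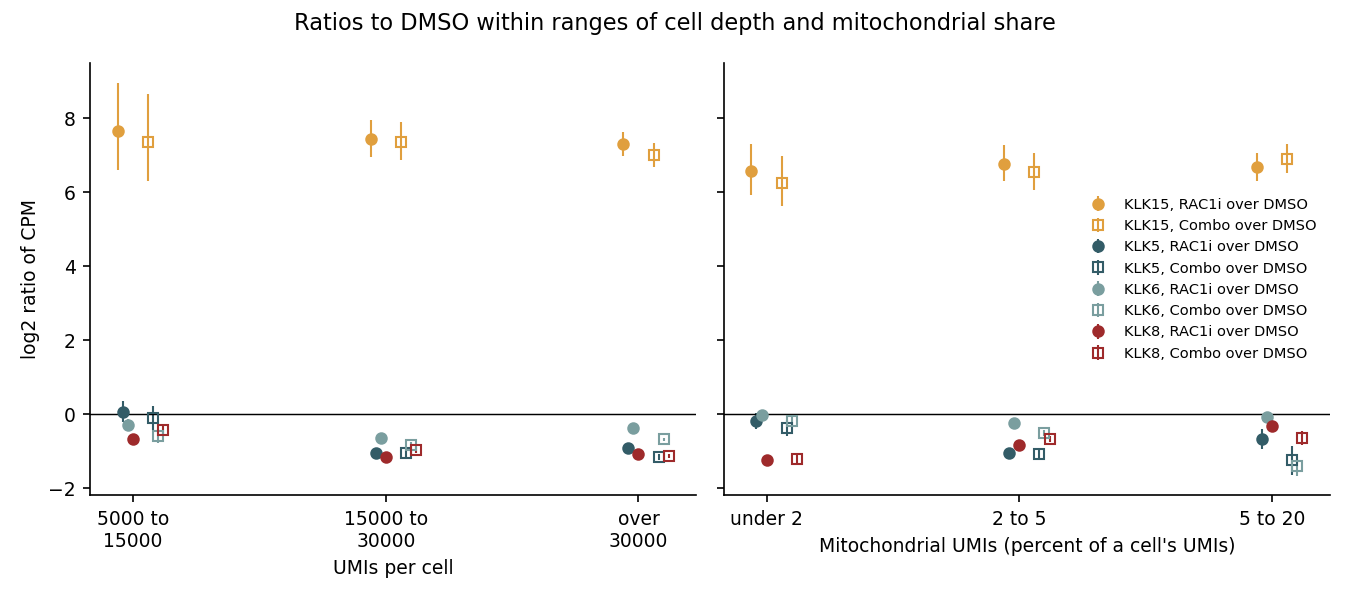
log2 ratios to DMSO of KLK15, KLK5, KLK6 and KLK8 within 3 ranges of UMIs per cell (left) and 3 ranges of mitochondrial share (right), with 95% counting intervals. Filled circles are RAC1i and open squares Combo. KLK15 stays above 6 in every range, while KLK5, KLK6 and KLK8 lie from just above 0 to -1.40.

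Across thinned cells of RAC1i and Combo, the genes most like KLK15 were SNHG15, ZFAS1 and SNHG17, which are host genes of small nucleolar RNAs. Over 4490 genes with at least 20 CPM in every library, they had the highest Pearson correlations of log2(UMIs + 1) with KLK15. The medians over the 2 libraries were 0.27 for SNHG15, 0.25 for ZFAS1 and 0.24 for SNHG17, over 9200 and 7354 cells. These are weak correlations in sparse counts over cells that share a library, and are given as a description. SNHG15 itself was at 50.6 CPM in DMSO, 972 in RAC1i and 760 in Combo, ZFAS1 at 489, 8620 and 7840, and SNHG17 at 31.8, 880 and 749. All 3 were thus higher in both treated libraries, as KLK15 was.

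For KLK6 the nearest genes over the 3 libraries were FTH1, the tetraspanin CD9 and the protease inhibitor SPINT2, with median correlations of 0.13, 0.12 and 0.11. CD9 kept to 0.12 to 0.13 and SPINT2 to 0.11 to 0.12 in every library, while FTH1 was at -0.03 in DMSO. For KLK8 they were S100A6, GPX4 and S100A11, at 0.11, 0.10 and 0.09, and for KLK5 S100A6, IGFBP2 and WFDC2, all at 0.06. For the summed members they were RPL32, SNHG15, RPL35A, RPL19 and RPL24, between 0.10 and 0.11, and all but SNHG15, at 0.01, were below 0 in DMSO, where KLK15 adds almost nothing to the sum.

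The genes of 4 further lists were counted with the same minimum of 10 CPM in the higher library, where 13.1% of all genes were over 2-fold higher and 24.6% over 2-fold lower in RAC1i over DMSO, and 11.8% and 22.8% in Combo over DMSO. Of 32 inhibitors of serine proteases, 7 reached this minimum, and 0 were over 2-fold higher and 2 over 2-fold lower in both RAC1i and Combo over DMSO. The 2 of 7 that were lower lay near the share of all genes. The median log2 ratio of the 7 was -0.27 in RAC1i and -0.17 in Combo, beside -0.20 and -0.18 for all genes. SPINK5, whose product LEKTI inhibits KLK5 and KLK7, was at 0.03 CPM in all 3 libraries. SLPI, a secreted inhibitor of leukocyte proteases, had 1293 CPM in DMSO, 1358 in RAC1i and 1297 in Combo. SPINT2, a membrane inhibitor of matriptase-type proteases, had 1180, 981 and 1048 CPM, and SPINT1, its relative, 89.1, 92.7 and 88.7. SERPINB6, an intracellular serpin, was lower at 64.3, 19.7 and 20.5 CPM, SERPINB1 at 34.1, 13.8 and 16.1, and PI3, or elafin, higher at 13.2, 23.3 and 18.4. The 3 inhibitors with the highest levels thus had log2 ratios to DMSO between -0.27 and 0.07, and, of the 7, those over 2-fold lower were the 2 intracellular serpins SERPINB1 and SERPINB6.

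Of 21 other genes of serine proteases and the plasminogen system, 7 reached 10 CPM in RAC1i or DMSO, with 1 over 2-fold higher and 3 over 2-fold lower, beside 13.1% and 24.6% of all genes. In Combo over DMSO the counts were 1 and 3 of 6, beside 11.8% and 22.8%. The median log2 ratios were -0.92 and -1.02, beside -0.20 and -0.18 for all genes. ST14, which encodes matriptase, a membrane protease of epithelia, was at 46.3 CPM in DMSO, 13.7 in RAC1i and 13.3 in Combo. PRSS8, or prostasin, a partner of matriptase, was at 50.1, 23.8 and 26.6 CPM and TMPRSS4, another membrane protease, at 72.9, 28.1 and 24.4. PLAU, or urokinase, was at 22.8, 16.2 and 13.3 CPM, while PLAUR, its receptor, went the other way at 8.37, 33.7 and 31.6. Below 10 CPM, TMPRSS2, a further membrane protease, was at 0.206 CPM in DMSO, 4.38 in RAC1i and 4.05 in Combo, 21.3-fold (15.6 to 29.8) and 19.7-fold (14.4 to 27.6) higher than DMSO, and it was named after its values were seen. TMPRSS3, at 8.46, 3.09 and 2.58 CPM, and TMPRSS13, at 0.573, 0.123 and 0.113 CPM, went the other way. They too were named after their values were seen.

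Of 18 receptors and substrates of kallikreins, 10 reached 10 CPM, with 0 over 2-fold higher and 6 over 2-fold lower in RAC1i over DMSO, and 1 and 7 in Combo over DMSO. Over all genes, 24.6% and 22.8% were over 2-fold lower in these comparisons. The median log2 ratios of the 10 were -1.02 and -1.27, beside -0.20 and -0.18 for all genes. F2RL1, the receptor PAR2 that trypsin-like kallikreins activate by cleavage, was higher at 13.7, 25.7 and 20.8 CPM. FLG, or filaggrin, was at 209 CPM in DMSO, 71.2 in RAC1i and 53.0 in Combo, and APP, the amyloid precursor that KLK6 can cleave, at 234, 117 and 115. IGFBP3, a binding protein for insulin-like growth factors, was at 190.1, 115 and 66.9 CPM. FLG is also a gene of the list with CXCL1 and IER3 above.

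Of 10 nuclear receptors, 6 reached 10 CPM, with 2 over 2-fold higher and 1 over 2-fold lower in both comparisons with DMSO. Over all genes, 13.1% and 24.6% were so in RAC1i and 11.8% and 22.8% in Combo. The median log2 ratios of the 6 were 0.28 and 0.17. RARA, a retinoic acid receptor, was at 6.31, 31.4 and 29.8 CPM, NR3C1, the glucocorticoid receptor, at 12.4, 47.7 and 44.8, and RARG at 18.2, 32.7 and 29.5. RXRA, the partner of the retinoic acid receptors, was lower at 13.2, 4.54 and 4.64 CPM. In Combo over RAC1i, of the genes of these 4 lists at 10 CPM or more in the higher library, 0 passed 2-fold in either direction. The largest differences among them were IGFBP3 at a log2 ratio of -0.78, FLG at -0.43 and PI3 at -0.34.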

How the data were processed

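The authors counted UMIs per gene and cell with Cell Ranger 4.0.0 on GRCh38 and deposited these raw counts without normalization. As in the study's methods, a cell needed more than 1000 genes, a mitochondrial share no higher than 20% and a complexity (log10 genes over log10 UMIs) above 0.8. No doublet caller was run and no upper limit on UMIs was set, so doublets may remain. The counts were summed per library and given as CPM. Intervals at 95% were exact Poisson for a level, exact conditional for a ratio and Clopper-Pearson for a share. With 1 library per condition no test was run. Cells were thinned to 5000 UMIs without replacement. Positions come from GENCODE 44, and promoters from RefSeq. Protein sequences were not used here.

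The members, the lists and the rule for named genes were chosen with earlier results of these data known. Named genes were all family genes, locus neighbours, the largest rise and fall in each pathway list among genes at 10 CPM or more in the higher library, the 3 highest genes of each list, and the genes with the highest correlations. Of the genes this rule names, 1 is not reported here. SPINK5, TMPRSS2, TMPRSS3, TMPRSS13, PTPRC, CD3E and the genes that label the 6 ranges of cells were named outside that rule. The alternatives were other limits on cells, scalings (TMM from edgeR 4.0.16, size factors from DESeq2 1.42.0, totals without mitochondrial genes), weights of cells, depths of thinning and thresholds. Calculations used Python 3.11.15 and R 4.3.3. The ratios between libraries and their intervals were tested on simulated sums. The depth reached by thinning was checked on DMSO cells, and the other steps were not tested on simulated data.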

Additional observations from a re-analysis of the deposited data

How the results depend on the processing

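KLK15 kept its direction and stayed far over 2-fold in both comparisons with DMSO under the alternatives of scaling, cells and weights, at log2 ratios of 7.22 to 7.48 in RAC1i over DMSO and 6.96 to 7.36 in Combo over DMSO. Within ranges of mitochondrial share, which are not among these alternatives, its log2 ratios were lower, at 6.57 to 6.76 and 6.26 to 6.90. KLK5, KLK6, KLK7, KLK8, KLK10 and KLK11 stayed below DMSO in both under these alternatives, which do not include the range of 5000 to 15000 UMIs, where KLK5 in RAC1i over DMSO was at 1.05 (0.858 to 1.28) and in Combo over DMSO at 0.933 (0.747 to 1.17). The log2 ratio of KLK10 went from -1.39 to -1.0005 in RAC1i over DMSO and from -1.46 to -0.79 in Combo over DMSO, KLK11 from -1.52 to -0.58 and from -1.18 to -0.68, KLK13 from 2.20 to 4.13 and from 2.20 to 4.19, and KLK14 from 2.21 to 2.76 and from 3.23 to 4.63 where DMSO held a UMI of it. No ratio over 2-fold to DMSO changed sign. The count of members over 2-fold lower was less firm, since KLK5 and KLK8 lie at the line. In RAC1i over DMSO it went from 1 to 2 in cells of 15000 to 30000 UMIs and to 0 with TMM factors, DESeq2 size factors or the mean over cells of CPM, where 25.5%, 22.1%, 21.2% and 23.1% of all genes were over 2-fold lower. In Combo over DMSO it went from 2 to 1 in cells of 15000 to 30000 UMIs and with a minimum of 50 CPM, and to 0 with TMM factors, DESeq2 size factors, the mean over cells or thinned cells, where the shares of all genes were, in this order, 25.6%, 15.9%, 19.9%, 19.2%, 20.9% and 22.4%. TMM moved the median of all genes from -0.20 to -0.11 in RAC1i over DMSO and DESeq2 to -0.07, and in Combo over DMSO from -0.18 to -0.08 and -0.04. With no minimum CPM, which takes in all 9 members, 3 were over 2-fold higher and 3 lower in RAC1i over DMSO, 3 and 4 in Combo over DMSO, and 1 (KLK14, from 6 and 11 UMIs) higher in Combo over RAC1i. Of all genes without a minimum, 32.7% were over 2-fold higher and 25.6% lower in RAC1i over DMSO, 30.9% and 25.7% in Combo over DMSO, and 8.61% higher in Combo over RAC1i. A threshold of 1 CPM put 5 members on in DMSO, and 50 CPM left 1 on in RAC1i and in Combo, KLK15. In DMSO, KLK6 and KLK8 were above 50 CPM, at 59.2 and 63.8 CPM. Of all 36601 genes, 3503 reached 50 CPM in DMSO, RAC1i or both, and 3469 in DMSO, Combo or both. Shares of all genes within each single library are not given for these thresholds, and nothing is read from the counts of members on.

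The share of cells with KLK15 depended on depth by construction. In the order DMSO, RAC1i, Combo it was 0.122%, 21.7% and 18.8% at 2500 UMIs, 0.579%, 55.8% and 51.8% at 10000 UMIs, and 1.61%, 68.6% and 66.3% without thinning. No paired analysis was possible because each condition was 1 library. Depth limits KLK13, KLK14 and the other genes with under about 100 UMIs, and no value here has a replicate behind it.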
